A study of Homo sapiens with 4 samples.

Results

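The nuclear genes for the subunits of the respiratory chain and of ATP synthase were followed in the cytoplasmic RNA of SUM159 cells. Members were all genes of the intron tables whose symbol starts with NDUFA, NDUFB, NDUFC, NDUFS or NDUFV and a digit, with UQCR, with COX and a digit from 4 to 8, or with ATP5, together with SDHA to SDHD. This gave 73 of 15902 genes and 287 of 142206 introns: 31 genes of complex I, 2 of complex II, 7 of complex III, 18 of complex IV and 15 of complex V. SDHC, SDHD and COX8C were not analysed here. NDUFA4 and NDUFA4L2, first assigned to complex I, were placed in complex IV, and ATP5S, now DMAC2L, was kept with complex V because its older symbol matches. SUM159 is an established line from a triple-negative breast cancer, and all values come from this single line. The treated cells received the spliceosome inhibitor H3B-8800, a small molecule, and the control cells received its vehicle DMSO, both for 12 hours, with biological duplicates of each. Only RNA with a polyA tail from the cytoplasmic fraction was sequenced. The comparison asks how much cytoplasmic RNA of each subunit gene was spliced, and how much still held an intron, with and without the inhibitor.

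Complex I (NADH to ubiquinone), complex II (succinate to ubiquinone), complex III (ubiquinol to cytochrome c) and complex IV (cytochrome c to oxygen) pass electrons along the inner mitochondrial membrane. Complexes I, III and IV pump protons as they do so, and complex V, the ATP synthase, makes ATP as protons flow back. Most subunits are made from nuclear genes, whose transcripts are spliced in the nucleus before they are exported and translated. H3B-8800 binds the SF3b part of the spliceosome, which recognises the branch point upstream of the 3′ splice site.

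For every intron there was a count of intronic reads and a count of spliced reads, those that span the intron. The 4 libraries held 58000000 to 64000000 reads in all, and 11605061 to 14240258 spliced reads. Intronic reads made up 8.19% and 8.24% of both kinds in the H3B-8800 libraries and 4.23% and 4.24% in the DMSO libraries. The mesenchymal marker VIM stood at 5037 ± 160 CPM (SD, n = 2) with H3B-8800 and 6027 ± 67.7 with DMSO. No spliced read was found for the hormone receptors ESR1 and PGR or for the immune markers CD3E and LYZ, and PTPRC was not analysed here. ERBB2, the third receptor that defines the triple-negative class, was read at 32.3 ± 1.6 CPM with H3B-8800 and 38.0 ± 1.7 with DMSO. The other mesenchymal markers, as means with H3B-8800 and with DMSO, were CAV1 (263 and 246 CPM), AXL (46.5 and 106 CPM), CD44 (21.9 and 10.4 CPM) and ZEB1 (8.3 and 7.9 CPM). The luminal marker GATA3 and the endothelial marker PECAM1 were also read, each at 3.8 and 2.3 CPM. CDH1 and VWF had at most 1 spliced read in a library. Levels are given as CPM, the spliced reads of a gene per 1000000 spliced reads of the library, scaled by TMM (edgeR's trimmed mean scaling, which centres most genes near 0), and 66 of the 73 members averaged at least 1 CPM and were tested.

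Spliced reads of the subunit genes moved in both directions. Of the 66 members tested, 20 rose and 25 fell (quasi-likelihood test in edgeR, p adjusted by Benjamini-Hochberg and below 0.05), 30.3% and 37.9%, and their median log2 change was -0.04. Among all genes tested 32.8% rose and 32.7% fell, with a median of 0.01, so with TMM both shares of the members lay near the background. The changes were mostly small: 1 member, NDUFS7, fell by at least 2-fold and none rose by that much, against 10.7% and 6.42% of all genes. With library totals in place of TMM, where the median over all genes was -0.16, 6 of the 66 members rose and 37 fell. Among all genes tested 23.6% rose and 41.5% fell, so on that scale the members had a lower share of rises and a higher share of falls. The count of rises also rested on single libraries, with 13 left without H3B-8800 library 2 and 11 without DMSO library 2, while falls numbered 22 to 24 whichever library was left out.

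**Figure D1:**
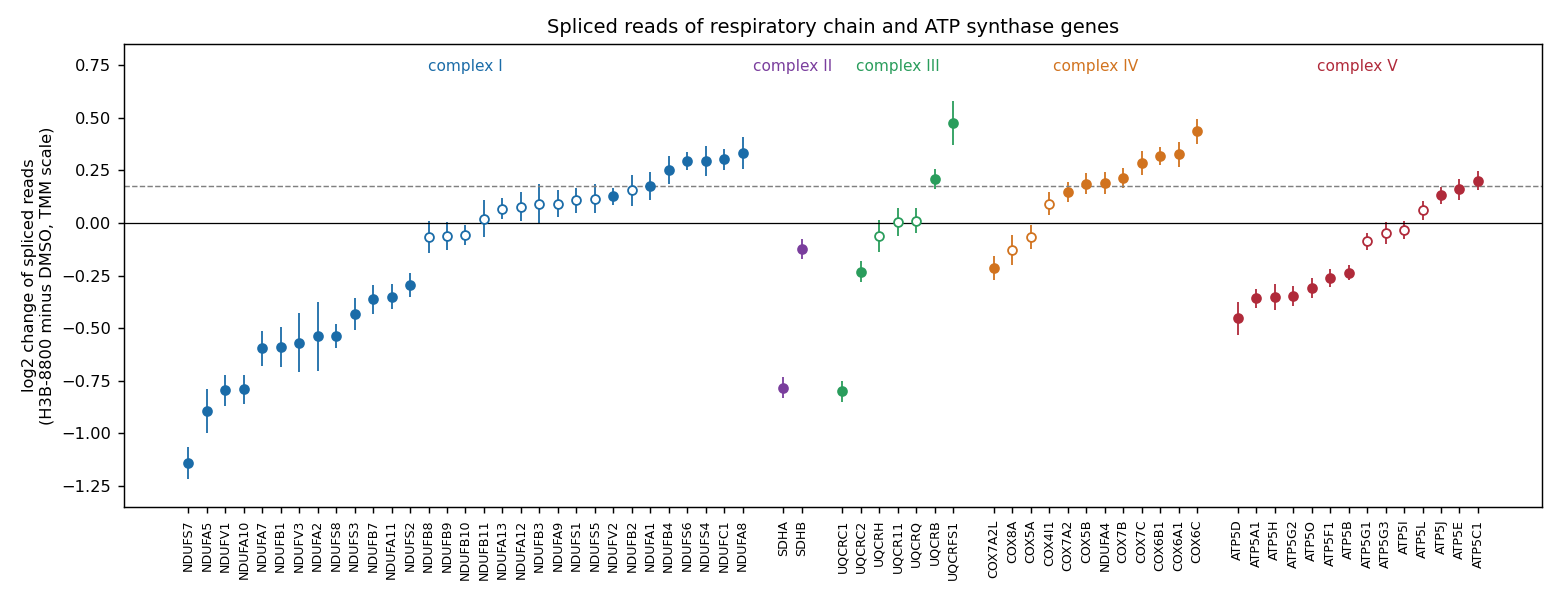
Log2 change of spliced reads (H3B-8800 minus DMSO, TMM scale) for the 66 members tested, ordered by complex and by size, with 2 libraries a group. Bars are the standard error of the change, approximated from the F statistic of the test, and not the spread of the libraries. Filled points passed the test and open points did not, and the dashed line marks where 0 lies with library totals. Complex I spans from -1.14 for NDUFS7 to 0.33 for NDUFA8, while 8 of the 12 members of complex IV are filled and above 0, with 3 of them still called higher on library totals.

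In complex I, 7 of 31 members tested rose and 13 fell, with a median log2 change of -0.06 (2 and 16 with library totals). With TMM this was 22.6% and 41.9%, against 32.8% and 32.7% of all genes tested. The 7 core subunits, which include the carriers of the flavin and the iron-sulfur clusters and are shared with bacterial complex I, included 5 of those falls and 1 rise, with a median of -0.43. NDUFS7, which holds the last iron-sulfur cluster before ubiquinone, stood at 41.5 and 40.8 CPM in the H3B-8800 libraries and at 91.0 and 90.3 CPM in the DMSO libraries. Its spliced reads were thus lower in both treated libraries, with a log2 change of -1.14 (SE 0.07, adjusted p = 2.6e-08). NDUFV1, which binds NADH and the flavin FMN, went from 240 and 258 CPM with DMSO to 131 and 155 CPM with H3B-8800, a log2 change of -0.80 (SE 0.07, adjusted p = 6.0e-07). Only 1 of its 8 introns, intron 8, has no annotated exon inside, with 70 and 77 spliced reads with H3B-8800 against 102 and 106 with DMSO. Counted at that intron alone, NDUFV1 changed by -0.24 (SE 0.20) and did not pass the test. The core rise was NDUFV2, an iron-sulfur subunit, by 0.13 (SE 0.04, adjusted p = 0.015), and it was not called without H3B-8800 library 2 or without either DMSO library.

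Among the 24 supernumerary subunits of complex I, which surround the core, 6 rose and 8 fell, with a median of 0.04. NDUFA5, of the ubiquinone-binding part, had 19.9 and 18.6 CPM with H3B-8800 against 34.5 and 36.9 CPM with DMSO, a log2 change of -0.89 (SE 0.10, adjusted p = 5.4e-06). NDUFA10, of the membrane arm, fell from 140 and 143 CPM to 86.4 and 77.3 CPM, by 0.79 on the log2 scale (SE 0.07, adjusted p = 4.1e-07). In both genes the groups did not overlap. NDUFS6, of the NADH-oxidising part, rose from 440 and 449 CPM to 534 and 555 CPM, a log2 change of 0.29 (SE 0.04, adjusted p = 4.9e-05). NDUFC1, of the membrane arm, rose from 195 and 199 CPM to 243 CPM in both H3B-8800 libraries (log2 0.30, SE 0.05, adjusted p = 1.5e-04). These rises were smaller than the falls of the subunits named above, and NDUFS6 and NDUFC1 were the only members of complex I called higher with library totals. NDUFS4 (log2 0.29, SE 0.07, adjusted p = 0.0032) and NDUFA8 (log2 0.33, SE 0.08, adjusted p = 0.0018) also rose with TMM. With library totals they changed by 0.12 and 0.15 and were not called, nor was either called without H3B-8800 library 2 or without DMSO library 2, nor NDUFS4 without H3B-8800 library 1.

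Both measured subunits of complex II fell, SDHA far more than SDHB. SDHA, the flavoprotein that oxidises succinate, had 192 and 198 CPM with H3B-8800 and 333 and 338 CPM with DMSO, a log2 change of -0.78 (SE 0.05, adjusted p = 2.0e-08). SDHB, the iron-sulfur subunit, had 265 and 259 CPM against 290 and 281 CPM, a log2 change of -0.12 (SE 0.05, adjusted p = 0.038). The SDHB groups did not overlap, but the call was lost without H3B-8800 library 1, without H3B-8800 library 2 and without DMSO library 1. RefSeq lists 4 pseudogenes named after SDHA and 1 named after SDHB, and the sources used here do not say how reads that fit both a gene and a copy were counted, so values of such genes are uncertain. RefSeq lists a pseudogene named after 42 of the 73 members, among them NDUFA5 with 12, so the same uncertainty holds for their values.

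In complex III, 2 of 7 members rose and 2 fell (1 and 5 with library totals). With TMM this was 28.6% each, against 32.8% and 32.7% of all genes tested. The falls were the 2 core proteins, which face the matrix. UQCRC1 had 189 and 190 CPM with H3B-8800 against 330 CPM in both DMSO libraries, a log2 change of -0.80 (SE 0.05, adjusted p = 1.5e-08). UQCRC2 had 328.7 and 328.5 CPM against 402 and 370.5 CPM, a smaller log2 change of -0.23 (SE 0.05, adjusted p = 0.0011). The rises were UQCRFS1, the Rieske iron-sulfur protein that passes electrons on to cytochrome c1, and UQCRB, a small subunit. UQCRFS1 went from 21.2 and 19.9 CPM with DMSO to 27.99 and 29.2 CPM, the highest rise among the members, with a log2 change of 0.48 (SE 0.11, adjusted p = 0.0015). UQCRB rose by 0.21 on the log2 scale with TMM (SE 0.05, adjusted p = 0.0019) and changed by 0.032, without passing the test, with library totals.

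In complex IV, 8 of 12 members tested rose and 1 fell with TMM, 66.7% and 8.33% against 32.8% and 32.7% of all genes tested. Their median was 0.19. With library totals 3 rose and 3 fell, with a median of 0.012, while 23.6% and 41.5% of all genes rose and fell. The members are the small nuclear-encoded subunits around a catalytic core that is encoded by mitochondrial DNA. COX6C had 161 and 169 CPM with H3B-8800 and 123 and 120 CPM with DMSO, a log2 change of 0.44 (SE 0.06, adjusted p = 2.4e-05). COX6A1 had 158 and 160 CPM against 130 and 124 CPM (log2 0.33, SE 0.06, adjusted p = 2.9e-04). COX6B1 had 468 and 473 CPM against 384 and 372 CPM (log2 0.32, SE 0.04, adjusted p = 2.7e-05). In these 3 genes both treated libraries lay above both controls, and they were called higher with library totals as well. Without the most-read intron of each gene, COX6B1 changed by 0.060 and COX6A1 by 0.19 and neither passed the test. COX6A1 has 2 introns, so its value then rests on a single intron. COX7C rose by 0.28 (SE 0.06, adjusted p = 5.4e-04) with TMM and changed by 0.11, not called, with library totals. COX7A2L, which tethers complex IV to complex III in supercomplexes, was the fall: it had 152 and 144 CPM against 172 CPM in both DMSO libraries, a log2 change of -0.22 (SE 0.06, adjusted p = 0.0047). RefSeq lists pseudogenes named after all 8 risen members: COX6C (18), COX5B (8), COX6B1 (7), COX6A1 (6), NDUFA4 (5), COX7B (4), COX7C (4) and COX7A2 (2). It lists 2 each for COX4I1 and COX5A, which were not called, and none for COX7A2L. The 8 rises are thus uncertain, because how reads that fit both a gene and a copy were counted is not known.

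Complex IV subunits with tissue-specific isoforms were read almost only as the ubiquitous form. COX4I1, the ubiquitous subunit 4, had 3239 and 3888 spliced reads in the treated libraries and 4120 and 3928 in the controls, while COX4I2 had 0 reads in 3 libraries and 4 in DMSO library 1. The muscle isoforms COX6A2 and COX7A1 had no spliced read in any library, and the testis isoform COX6B2 had 1. A count of 0 allows up to 3 reads per library, and none of these 4 isoforms could be tested. COX4I1 did not pass the test, with a log2 change of 0.09 (SE 0.06, adjusted p = 0.17) on the TMM scale and -0.085 with library totals. COX7A2, the ubiquitous subunit 7A, rose by 0.15 with TMM (SE 0.05, adjusted p = 0.014), changed by -0.029 with library totals, and was not called without H3B-8800 library 2 or without DMSO library 2. COX8A, of subunit 8, changed by -0.13 (SE 0.07, adjusted p = 0.13) with TMM and was called lower, at -0.31, with library totals.

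In ATP synthase, 3 of 14 members tested rose and 7 fell (0 and 11 with library totals), with a median of -0.16. With TMM this was 21.4% and 50%, against 32.8% and 32.7% of all genes tested. The rises were the least secure: ATP5C1, ATP5E and ATP5J rose with TMM, and leaving out either H3B-8800 library or DMSO library 2 left 1 of the 3 calls. The catalytic F1 head has alpha and beta subunits around a central stalk. ATP5A1, subunit alpha, had 364 and 366 CPM with H3B-8800 against 471 and 465 CPM with DMSO, a log2 change of -0.36 (SE 0.04, adjusted p = 7.5e-06). ATP5D, subunit delta of the central stalk, had 106 and 127 CPM against 164 and 156 CPM, a log2 change of -0.45 (SE 0.08, adjusted p = 2.1e-04). The treated libraries lay below the controls in both genes. The other 2 central stalk subunits went the other way with TMM: ATP5C1, subunit gamma, by 0.20 (SE 0.04, adjusted p = 0.0014) and ATP5E, subunit epsilon, by 0.16 (SE 0.05, adjusted p = 0.013), though with library totals they changed by 0.024 and -0.016 and were not called.

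In the peripheral stalk, which holds the head still, 3 of 4 subunits fell and 1 rose. ATP5H, subunit d, had 127 and 129 CPM with H3B-8800 against 156 and 170 CPM with DMSO (log2 -0.35, SE 0.06, adjusted p = 2.3e-04). The rise, ATP5J, was 0.13 (SE 0.04, adjusted p = 0.014) and turned to -0.046 with library totals, to -0.032 without its most-read intron and to -0.058 at its intron with no annotated exon inside. ATP5J has 2 introns, so each of the last 2 values rests on a single intron. Of the 5 members of the membrane part Fo, 1 fell and none rose (none at an unadjusted p below 0.05 and none with DESeq2). The 3 genes for subunit c, which forms the rotating ring and has the same mature sequence from each gene, can be set side by side. ATP5G2 had 277 and 280 CPM against 362 and 346 CPM (log2 -0.35, SE 0.05, adjusted p = 2.7e-05). ATP5G1, with a log2 change of -0.09 (SE 0.04, adjusted p = 0.079), and ATP5G3, with -0.05 (SE 0.05, adjusted p = 0.42), did not pass with TMM, and were called lower, at -0.26 and -0.23, with library totals. Whether the 3 genes differed from each other was not tested.

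Intronic reads rose over the members. With counts scaled to library totals, 40 of the 57 genes with a mean of at least 10 intronic reads rose and none fell (edgeR's quasi-likelihood test), against 58.3% and 4.37% of all genes tested. DESeq2 gave 36 rises and no fall, and no member was lower at an unadjusted p below 0.05 with either tool. The minimum of 10 reads was a mean over all 4 libraries, so a gene could enter through the treated libraries alone. NDUFS5, with 32 and 32 intronic reads against 0 and 2 in DMSO, is an example. Such genes can hardly be called lower, so these counts lean towards rises. The count of rises rested on both treated libraries: without H3B-8800 library 1 or library 2 no gene of the whole table passed in edgeR, although 33 of 56 and 30 of 54 members had an unadjusted p below 0.05 and DESeq2 called 18 in each case. TMM scaling of the intronic reads, which sets the rise over most genes near 0, gave 20 rises and 4 falls (20.2% and 20.1% of all genes).

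Set against the spliced reads of the same library, which needs no scaling, intronic reads rose in 46 of 57 members and fell in none (background 65.4% and 2.35%). DESeq2 gave 42 rises and no fall, and no member was lower at an unadjusted p below 0.05. The minimum was again a mean over all 4 libraries, so these counts lean towards rises as well. Per complex the ratio rose in 20 of 26 members of complex I, 2 of 2 of complex II, 6 of 6 of complex III, 7 of 10 of complex IV and 11 of 13 of complex V. With 1 library left out the count stayed between 41 and 44. Of the 24 members whose spliced reads fell and whose ratio could be tested, the ratio rose in 23, ATP5H being the other with 0.65 (SE 0.34, adjusted p = 0.099). Of the 18 whose spliced reads rose, the ratio rose in 12. The other 6, named here after their values were seen, were NDUFS4, NDUFC1, COX5B, COX6C, COX7C and ATP5C1, with log2 changes of the ratio between -0.44 and 0.67. These 2 counts share the spliced reads, so a fall of those reads alone raises the ratio.

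Summed over the introns of a complex, the intronic reads per 100 spliced reads were higher in both treated libraries than in both controls in all 5 complexes. Complex I had 5.35 ± 0.15 (SD, n = 2) with H3B-8800 and 2.23 ± 0.045 with DMSO, a 2.40-fold difference. Complex II went from 1.15 ± 0.0098 to 8.12 ± 0.60, or 7.04-fold, most of it from SDHA: SDHB alone gave 3.50-fold. Intron 5 of SDHB, which has an annotated exon inside, held 74.0% of the gene's intronic reads with H3B-8800. Over its introns with no annotated exon inside, the ratio of SDHB changed by 0.085 (SE 0.74) and was no longer called. Complex III went from 1.60 ± 0.12 to 7.08 ± 0.41, or 4.44-fold. Complexes IV and V held the fewest intronic reads, with 0.777 ± 0.13 and 0.400 ± 0.021 in DMSO and 2.22 ± 0.10 and 1.53 ± 0.022 in H3B-8800, rises of 2.85-fold and 3.82-fold. Over all members the values were 1.13 and 3.41, and over all genes 4.42 and 8.95, so the members had fewer intronic reads per spliced read than genes in general in either condition. With 2 libraries against 2, an exact two-sided permutation test cannot give a p below 0.333, which is what each complex reached. The folds were also taken over only the 121 introns with no annotated exon of another transcript inside. They became 3.20, 2.46, 9.64, 3.59 and 5.67 for complexes I to V, in another order. That order is uncertain, because duplicates differed: complex II had 1.00 and 2.14 with H3B-8800, and complex III had 0.311 and 0.635 with DMSO.

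**Figure D2:**
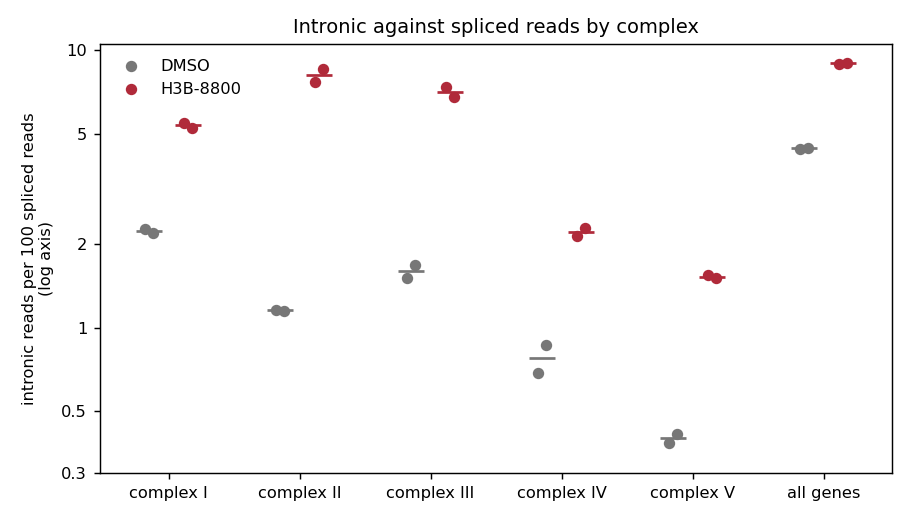
Intronic reads per 100 spliced reads (log axis) summed over each complex and over all genes, with 1 point per library and a bar at the mean of 2 libraries a group. Both H3B-8800 points lie above both DMSO points in every complex, from 1.53 against 0.400 in complex V to 8.12 against 1.15 in complex II (group means).

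Scaled to library totals (per 1000000 reads of the library), the members together changed by 61.0 in intronic reads and by -516 in spliced reads. Complex I changed by 22.8 and -158, complex V by 12.4 and -244, and complex IV by 8.36 and -0.53. The intronic gain was therefore smaller than the spliced loss in complexes I and V and over all members, but not in complex IV. A spliced read that spans several introns is counted at each, so these sums are not numbers of molecules. They are shares of the reads of a library, so neither cell number nor RNA per cell can be read from them.

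**Figure D3:**
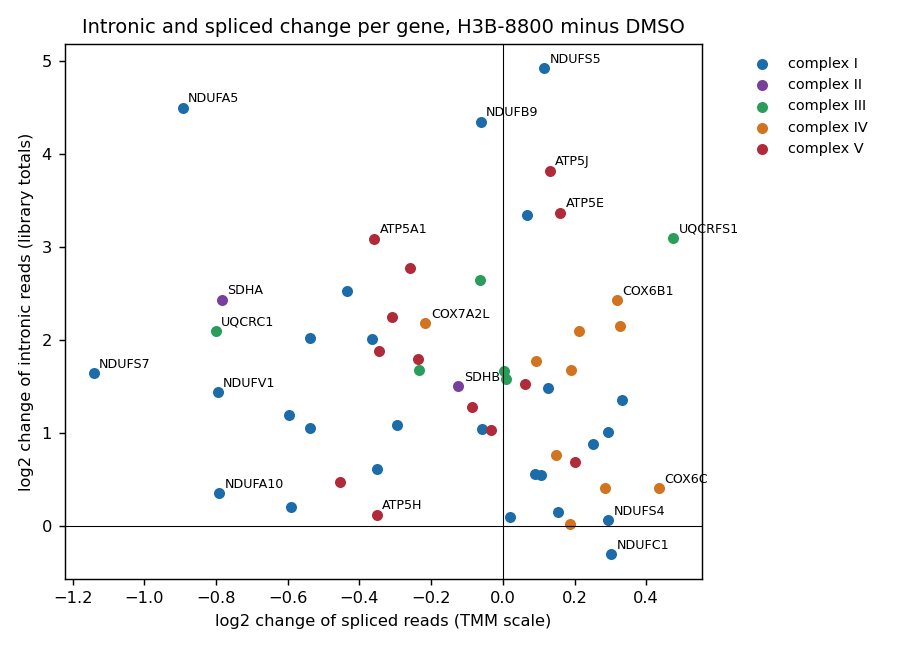
Log2 change of spliced reads (TMM scale) against that of intronic reads (library totals) for the members tested for both, coloured by complex. Points with a log2 change of intronic reads above 2 lie on both sides of 0 on the horizontal axis, for example UQCRC1 at -0.80 and UQCRFS1 at 0.48, and NDUFC1 is below 0 on the vertical axis at -0.31.

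The ratio was then tested intron by intron. Of the 86 member introns that averaged at least 10 intronic and at least 10 spliced reads, the ratio of intronic to spliced reads rose in 71 and fell in 1 (edgeR's quasi-likelihood test), against 56.5% and 2.88% of all introns tested, with a median log2 change of 2.05 against 1.62. Without a single H3B-8800 library the rises numbered 53. The minimum of 10 reads was a mean over all 4 libraries, so introns with almost no intronic reads in DMSO could enter through the treated libraries alone. Such introns can hardly be called lower, so these shares and medians lean towards rises. With the minimum lowered to 5 reads, 73 of 116 member introns rose, against 7349 of 17584 among all introns. The ends of introns that rose and of others that did not are shown next, because the inhibitor's target acts just upstream of the 3′ splice site. Lower case letters are the last 40 bases of the intron and capitals the first 10 bases of the next exon, on the transcribed strand, as read from GENCODE 29 transcripts on GRCh38 whose exon runs through the site. These are 8 coding introns that rose with a small adjusted p and 4 that were not called, so they were chosen by their values. They are a selection and not a full ranking. Other introns with a readable end were left out, and 6 member introns with such an end were not called.
SDHA intron 9, risen (chr5:250952-251001, plus strand): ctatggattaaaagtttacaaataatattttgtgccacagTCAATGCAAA
NDUFS7 intron 6, risen (chr19:1393202-1393251, plus strand): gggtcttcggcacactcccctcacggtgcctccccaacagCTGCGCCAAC
NDUFS7 intron 7, risen (chr19:1395351-1395400, plus strand): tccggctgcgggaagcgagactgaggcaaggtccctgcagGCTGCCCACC
ATP5A1 intron 8, risen (chr18:46084354-46084403, minus strand): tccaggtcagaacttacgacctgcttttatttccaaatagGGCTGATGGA
ATP5O intron 1, risen (chr21:33914491-33914540, minus strand): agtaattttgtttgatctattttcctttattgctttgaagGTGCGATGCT
ATP5D intron 2, risen (chr19:1244057-1244106, plus strand): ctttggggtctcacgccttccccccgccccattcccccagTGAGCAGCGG
SDHA intron 6, risen (chr5:235104-235153, plus strand): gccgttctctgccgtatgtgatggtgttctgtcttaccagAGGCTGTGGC
NDUFB10 intron 2, risen (chr16:1961457-1961506, plus strand): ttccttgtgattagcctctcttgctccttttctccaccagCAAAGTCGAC
NDUFB2 intron 1, not called (chr7:140702826-140702875, plus strand): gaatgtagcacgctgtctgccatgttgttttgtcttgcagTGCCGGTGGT
ATP5I intron 2, not called (chr4:673392-673441, minus strand): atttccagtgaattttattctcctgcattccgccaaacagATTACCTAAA
ATP5D intron 1, not called (chr19:1242416-1242465, plus strand): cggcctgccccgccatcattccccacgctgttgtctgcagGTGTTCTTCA
COX5B intron 1, not called (chr2:97647027-97647076, plus strand): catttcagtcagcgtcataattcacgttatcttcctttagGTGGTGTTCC

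All 12 introns end in AG. In the 20 bases that stop 3 bases before the exon, the pyrimidine share ran from 40% (NDUFS7 intron 7) to 90% (ATP5D intron 2 and NDUFB10 intron 2) in the 8 risen introns and from 70% to 75% in the 4 others. Over all 44 member introns with a readable 3′ end the median share was 75%, with 75% in those that rose and 72.5% in those not called, and it was 75% over all such introns of the tables. The 20 bases of SDHA intron 9 were 50% pyrimidine.

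SDHA intron 9, 10515 bases long between coding exons (chr5:240477-250991), was the member intron with the smallest adjusted p. It held 263 and 289 intronic reads with H3B-8800 against 30 and 38 with DMSO, beside 283 and 286 spliced reads against 553 and 509. Intronic reads were thus 48.2% and 50.3% of both kinds in the treated libraries and 5.15% and 6.95% in the controls, a log2 change of the ratio of 3.92 (SE 0.30, adjusted p = 2.0e-06). Spliced reads fell at all 12 introns of SDHA and not only there: the log2 change on library totals ran from -1.18 at intron 6 to -0.79 at intron 1, while intron 9 held 77.7% of the gene's intronic reads with H3B-8800. An exon of another annotated transcript lies inside intron 9, and without such introns the ratio of SDHA changed by 2.12 in place of 3.39.

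**Figure D4:**
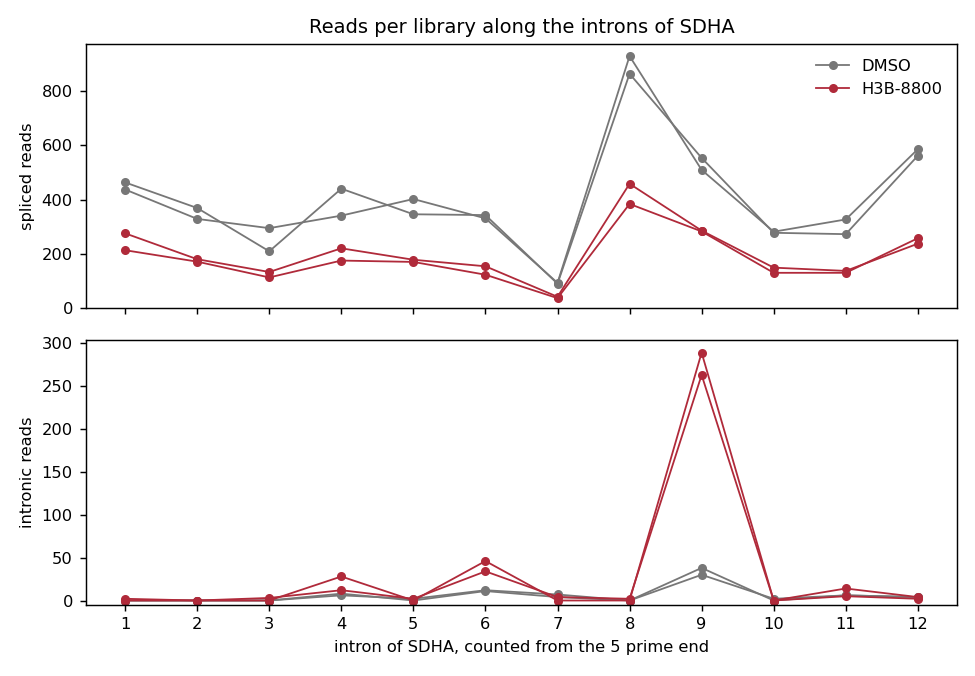
Spliced reads (upper) and intronic reads (lower) at each of the 12 introns of SDHA, with 1 line per library. Both treated lines of spliced reads run below both control lines at every intron, while the intronic reads peak at intron 9, with 263 and 289 reads against 30 and 38.

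The last 2 introns of NDUFS7 lie between coding exons and rose as well. These percents are shares of the reads at an intron, which grow with its length, and not shares of RNA molecules. Intron 6, 2076 bases long (chr19:1391166-1393241), had 34 and 38 intronic reads with H3B-8800 against 2 and 3 with DMSO, which is 27.6% and 27.0% of both kinds against 0.816% and 1.01% (log2 change of the ratio 5.26, SE 0.53, adjusted p = 1.3e-05). Intron 7, 2060 bases long (chr19:1393331-1395390), already stood at 52.9% and 46.4% intronic in the controls, and reached 90.5% and 89.9% with H3B-8800 (3.22, SE 0.34, adjusted p = 1.6e-05). GENCODE annotates a transcript that retains intron 7. In NDUFA10 the picture was split in a like way: intron 4, of 3692 bases, had 36 and 24 intronic reads with H3B-8800 against 2 and 0 with DMSO (adjusted p = 2.5e-05). Intron 5, chosen after its values were seen, was intronic at 57.7% and 54.2% in the controls and at 79.3% and 77.2% in the treated libraries. Spliced reads of NDUFA10 fell less at introns 1 and 2 (-0.57 and -0.15 on library totals) than at introns 3 to 9 (-1.31 to -1.02).

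Intron 8 of ATP5A1 has 140 bases on chromosome 18. It is shown whole, with the bases of its ends in capitals, because all of its sequence is at hand.
ATP5A1 intron 8 (chr18:46084364-46084503, minus strand): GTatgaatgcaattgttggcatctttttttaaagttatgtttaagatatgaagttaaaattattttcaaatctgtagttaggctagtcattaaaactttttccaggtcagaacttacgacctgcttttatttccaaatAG
Its GC content is 28.6%. It had 89 and 61 intronic reads with H3B-8800 against 12 and 4 with DMSO, or 25.9% and 19.6% against 2.86% and 1.08% (3.83, SE 0.46, adjusted p = 4.0e-05). It held 93.2% of the intronic reads of ATP5A1 in the treated libraries, and a retained_intron transcript of GENCODE covers it.

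The other introns named rose from and to a wide range of shares. ATP5G2 intron 3, of 3719 bases with no annotated exon inside, stood at 5.69% and 5.38% intronic against 0.637% and 0.467% (log2 change of the ratio 3.38, SE 0.34, adjusted p = 1.3e-05). ATP5J intron 2 reached 1.68% and 0.972% from 0.0366% and 0.0390%, so at most a small part of its reads were intronic although the ratio rose by 5.04 (SE 0.51, adjusted p = 1.4e-05). ATP5E intron 2, which lies in the 3′ UTR, stood at 4.32% and 3.89% against 0.264% and 0.483%. UQCRQ intron 1, in the 5′ UTR, stood at 19.2% and 20.3% against 2.65% and 3.04%. UQCRH, the hinge protein of complex III, has a single intron of 6235 bases with no annotated exon inside, and it went from 1.87% and 2.96% to 15.3% and 15.5% intronic. These 5 introns all rose in both treated libraries over both controls. NDUFB7 intron 1, with no annotated exon inside either, reached 39.1% and 33.7% from 8.96% and 7.88%. NDUFB9 intron 2 reached 8.33% and 8.80% from 0.391% and 0.388%.

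**Figure D5:**
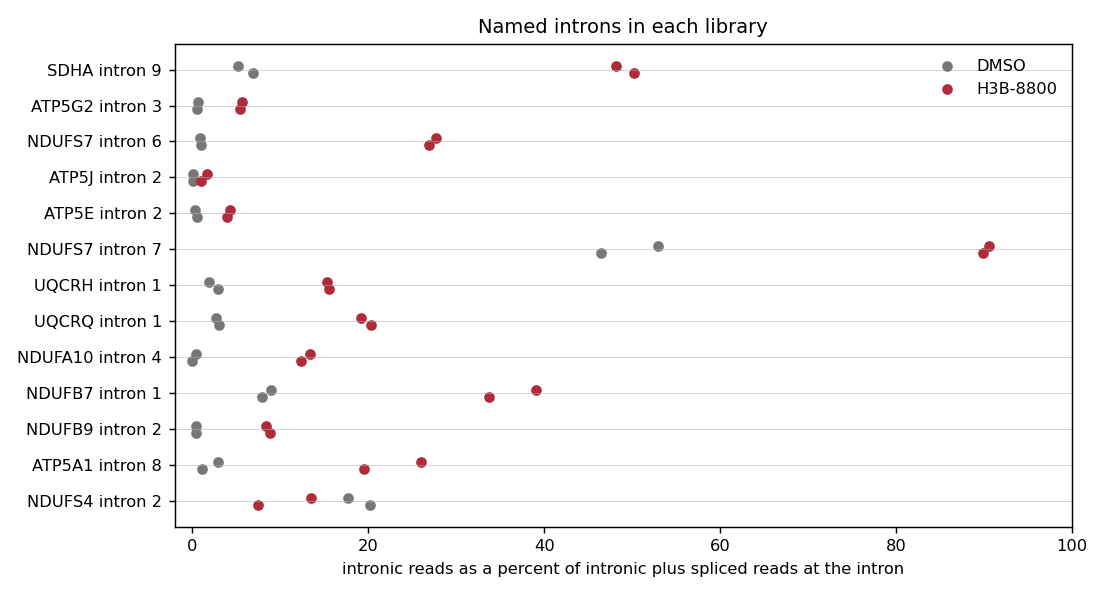
Intronic reads as a percent of intronic plus spliced reads at the 13 named introns, with 1 point per library. In 12 introns both H3B-8800 points lie to the right of both DMSO points, from NDUFS7 intron 7 (90.5% and 89.9%) down to ATP5J intron 2 (1.68% and 0.972%), and in NDUFS4 intron 2 they lie to the left.

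The member intron that fell was intron 2 of NDUFS4, of 42702 bases, the longest of those named. It had 70 and 37 intronic reads with H3B-8800 against 106 and 113 with DMSO, 13.5% and 7.49% against 17.6% and 20.3%, a log2 change of -1.004 (SE 0.34, adjusted p = 0.025). It was not called without H3B-8800 library 2 (-0.57), without DMSO library 2 (-0.88), with DESeq2, or when the minimum was lowered to 5 reads. The 14 introns that were not called include intron 1 of ATP5D, at 12.5% and 13.3% intronic with H3B-8800 and 11.8% and 15.3% with DMSO (log2 -0.076, SE 0.34, adjusted p = 0.86). In the same gene intron 2 rose from 0.880% and 1.78% to 13.03% and 11.2% (3.34, SE 0.42, adjusted p = 5.4e-05), so neighbouring introns of 1 gene had unlike values, though the difference between them was not tested.

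In 8 of the 22 members with at least 4 introns of at least 60 spliced reads in the controls together, a single intron held over 50% of the gene's intronic reads with H3B-8800, and in the other 14 none did. The share over all such genes was 43.2%, against 36.4% of the members, and COX5A, 1 of the 8, had only 7 and 6 intronic reads in the treated libraries. The 71 risen introns had a median length of 2265 bases, against 2256 bases for risen introns of all genes. Introns inside an exon of an annotated retained_intron transcript made up 18.6% of the member introns tested and 7.44% of all introns tested. By place in the gene, the median log2 change was 1.25 over the 22 first introns, 2.09 over 34 internal ones, 2.02 over 23 last ones and 2.80 over 7 introns of single-intron genes. Among all introns tested the first were likewise the lowest of these, at 0.87, against 1.68 internal, 1.98 last and 1.24 single.

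The changes of spliced reads were also counted by the number of introns. With 1 to 3 introns, 17 of 44 rose and 11 fell, with 4 to 6 introns 1 of 8 rose and 4 fell, and with 7 to 13 introns 2 of 14 rose and 10 fell, with medians of 0.04, -0.16 and -0.27. Among all genes with 1 to 3 introns, 29.8% rose and 21.4% fell, with 4 to 6 introns 37.2% and 27.2%, and with 7 to 13 introns 34.8% and 36.2%. The 2 that rose in the last class were NDUFV2 and ATP5C1. With library totals 6 of 44 rose and 22 fell in the first class, none of 8 rose and 5 fell in the second, and none of 14 rose and 10 fell in the third. The shares of all genes were then 20.25% and 31.05%, 26.7% and 35.6%, and 25.8% and 43.95%. The members of all classes were measured in the same 4 libraries, are not replicates and differ in complex, so the classes were described and not tested.

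Genes around the complexes were compared with them. Of 8 subunits and carriers the symbol rule does not match, 3 rose and 5 fell in spliced reads, against 32.8% and 32.7% of all genes tested. NDUFAB1, the acyl carrier protein of complex I, rose from 143 and 130 CPM to 189 and 187 CPM (log2 0.46, SE 0.06, adjusted p = 1.9e-05), and CYC1, cytochrome c1 of complex III, fell from 158 and 164 CPM to 91.0 and 93.5 CPM (log2 -0.81, SE 0.06, adjusted p = 1.1e-07). ATPIF1, the inhibitor of ATP synthase, fell by 0.46 (SE 0.07, adjusted p = 4.1e-05). C14orf2, a small subunit of ATP synthase, rose by 0.26 (SE 0.08, adjusted p = 0.010) with TMM. It was not called with library totals (0.080), without either H3B-8800 library or without DMSO library 2.

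Assembly factors, which help build the complexes without staying in them, moved in both directions. Of 44 tested, 10 rose and 19 fell, with a median of -0.05, and the ratio of intronic to spliced reads rose in 17 and fell in 2 of 32. Among all genes tested the shares were 32.8% and 32.7% for spliced reads and 65.4% and 2.35% for the ratio. COA5, an assembly factor of complex IV, had 24.6 and 21.2 CPM with H3B-8800 against 7.17 and 8.77 CPM with DMSO, a log2 change of 1.52 (SE 0.16, adjusted p = 1.9e-06). COA6, which serves copper delivery to complex IV, rose by 0.75 (SE 0.09, adjusted p = 5.0e-06). Both exceeded the rise of every tested subunit of complex IV. TTC19, of complex III assembly, fell from 49.4 and 51.6 CPM to 18.9 and 20.1 CPM (log2 -1.37, SE 0.09, adjusted p = 4.0e-08). ACAD9, of complex I assembly, fell by 1.05 (SE 0.07, adjusted p = 4.5e-08) and its ratio rose by 3.97 (SE 0.28, adjusted p = 1.4e-08).

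Among 19 tested regulators of mitochondrial transcription and biogenesis, 9 rose and 6 fell, against 32.8% and 32.7% of all genes tested. YY1, a transcription factor, rose in spliced reads from 111 and 110 CPM to 172 and 181 CPM (log2 0.67, SE 0.06, adjusted p = 4.2e-07) and in its ratio by 3.67 (SE 0.24, adjusted p = 8.4e-09). GABPB1, a partner of the transcription factor GABPA, rose by 0.81 (SE 0.07, adjusted p = 6.6e-07). POLG, the mitochondrial DNA polymerase, fell by 1.35 (SE 0.08, adjusted p = 9.8e-09), and LRPPRC, which stabilises mitochondrial mRNAs, fell by 0.69 (SE 0.06, adjusted p = 3.6e-07). The enzymes that feed the chain were compared as well. Of 18 genes of pyruvate dehydrogenase and the tricarboxylic acid cycle, 12 fell and none rose with TMM, with a median of -0.36. Over all genes tested 32.7% fell and 32.8% rose, with a median of 0.01. The other 6 genes of this list did not pass, among them DLD at 0.15 and PDHX at 0.14, named after their values were seen. A single gene of the list was higher at an unadjusted p below 0.05, and none was called higher with DESeq2 or with library totals. The ratio rose in 12 of 16, against 65.4% of all genes tested. PDHB, of pyruvate dehydrogenase, fell from 111 and 119 CPM to 49.8 and 42.5 CPM (log2 -1.32, SE 0.08, adjusted p = 2.3e-08), and PDHA1 fell by 0.65 (SE 0.06, adjusted p = 4.7e-07). No tested member of the 5 complexes had as low a log2 change as PDHB.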

How the data were processed

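The 4 cytoplasmic polyA libraries were strand-specific, per the labels' protocols, and HISAT2 2.0.4 with the builds hg38 and mm10 is named in the submitters' processing notes. The sources used here do not give the counting method. The deposited files hold 2 read counts and an RPKM value for each of 142224 human introns, 1 RefSeq transcript per gene. The second count was taken, from its values, as intronic plus spliced reads, and 18 introns without it were left out. The deposited RPKM served only to recover the library totals. Between 60.4% and 66.7% of the non-zero intronic counts of member introns were even numbers, so both mates of a pair may be counted and reads are not independent molecules. All 287 member introns are GENCODE 29 introns, so coordinates are GRCh38, 1-based, and 166 of them hold an exon of another annotated transcript on either strand, whose reads cannot be told apart from retained intron.

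Spliced reads per gene (mean of at least 1 CPM, TMM), intronic reads per gene (mean of at least 10, library totals) and their ratio (interaction of kind of read and treatment, a term per library, mean of at least 10 of each kind, per gene and per intron) were tested over the whole table with edgeR 4.0.16 in R 4.3.3 and adjusted by Benjamini-Hochberg, with a threshold of 0.05. SEs were approximated from the F statistic. The code was tested on simulated data. Replicates differed by more than counting noise (chi-square per degree of freedom 3.80 and 3.52). Alternatives were DESeq2 1.42.0, other scalings and filters, other sets of introns, a replicate block and leaving out each library. Named members were up to 4 rises and 4 falls per complex with groups that do not overlap, the 12 introns with the smallest adjusted p for a rise and those that fell, SDH genes, isoform pairs, and 2 rises and 2 falls per list. Members and lists were chosen with earlier results of these data known.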

Additional observations from a re-analysis of the deposited data

How the results depend on the processing

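Fitting spliced reads with library totals gave 6 rises in place of 20, and complex medians of -0.23, -0.63, -0.17, 0.012 and -0.34 for complexes I to V. Over introns with no annotated exon inside, fewer members could be tested: 10 rose in spliced reads, 13 in intronic reads and 14 in the ratio, and the complex folds were 3.20, 2.46, 9.64, 3.59 and 5.67, while complex II without SDHA gave 3.50. With a library left out, members risen in spliced reads ranged from 11 to 18, in intronic reads from 0 to 40, and introns fallen from 0 to 1. Intronic rises numbered 20 with TMM, which also gave 4 falls, 24 with at least 50 reads and 18 with DESeq2 without either H3B-8800 library, the last chosen after seeing the data. The fallen intron count was 0 with DESeq2 and 0 with at least 5 reads. Reversed directions were ATP5J (-0.046 with library totals, -0.032 without its most-read intron, -0.058 without annotated exons), ATP5E (-0.016), COX4I1 (-0.085) and COX7A2 (-0.029) with library totals, the ratio of NDUFS4 without H3B-8800 library 2 (0.34) and without DMSO library 2 (0.11), in a range of -0.59 to 0.34 over the libraries left out, and that of NDUFC1 without H3B-8800 library 2 (0.11), in a range of -1.25 to 0.11. The cause was not tested. Of the single genes and introns named, 741 alternative values kept direction and call, 50 lost and 4 gained the call, and 9 reversed.

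The correlation of the deviations of same-numbered libraries was 0.08, over 2 pairs, and the labels do not say that a number marks anything shared. With the replicate number as a block, 20 members rose and 25 fell in spliced reads, 41 rose in intronic reads, 46 in the ratio, and 68 introns rose and 1 fell. With 2 libraries a group and few intronic reads per intron, 201 of the 287 member introns were not tested for the ratio.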
